A study of Rattus norvegicus with 6 samples.

Results

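The 8 genes described here encode the class II pathway of the rat major histocompatibility complex (MHC), which is called RT1 in this species. They are Cd74, RT1-Da, RT1-Db1, RT1-Ba, RT1-Bb, RT1-DMa, RT1-DMb and Ciita, and they were chosen by symbol from the 30452 genes of the deposited table. Each symbol occurred once, for example Cd74 as ENSRNOG00000018735 and RT1-DMa as ENSRNOG00000066773. The study profiled single cells of the hippocampus of male rats with Chromium 3′ v3 chemistry, where a unique molecular identifier (UMI) marks each captured transcript. The irradiated group (3 samples, labelled R1 to R3) had received 20 Gy to the whole brain 2 months before dissection, and the control group (3 samples, labelled N1 to N3) is labelled as control only. The sources used here give neither strain, age nor any sham procedure. Hippocampi were minced and digested, red cells were lysed and dead cells were taken out magnetically, so the cells are those that came through this preparation, and no sorting for a cell type is described.

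MHC class II molecules show peptides from endosomes to CD4+ T cells. An α and a β chain pair in the endoplasmic reticulum (RT1-Da with RT1-Db1 for the RT1-D molecule, RT1-Ba with RT1-Bb for RT1-B), and the invariant chain, encoded by Cd74, fills the groove and escorts the pair to the endosome. There cathepsins cut the invariant chain, and the DM molecule, encoded by RT1-DMa and RT1-DMb, exchanges its last fragment for a peptide. Ciita encodes the transactivator that switches these genes on. In the healthy brain, class II is known to be low on most microglia and high on dendritic cells, B cells and part of the macrophages at the brain's borders.

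The genes share a known promoter layout, in which an X box and, downstream of it, a Y box (an inverted CCAAT motif bound by NF-Y) hold the complex that recruits the transactivator. The 120 bases before the annotated gene start are shown for the 6 genes with an entry in the RefSeq promoter table (build GRCr8), because these members moved together or apart in the cells described next. RT1-DMb and Ciita had no entry. The windows lie at chr18:56527086-56527205 (plus strand) for Cd74, chr20:4515295-4515414 (plus) for RT1-Da, chr20:4560163-4560282 (minus) for RT1-Db1, chr20:4576937-4577056 (plus) for RT1-Ba, chr20:4604119-4604238 (minus) for RT1-Bb and chr20:4712336-4712455 (minus) for RT1-DMa. Sequences run 5′ to 3′ on the gene's strand, and capitals mark the matches to the X pattern (the first run of capitals, with the positions at which those 4 runs differ free to be any base in the search) and to the Y letters TGATTGG.
Cd74: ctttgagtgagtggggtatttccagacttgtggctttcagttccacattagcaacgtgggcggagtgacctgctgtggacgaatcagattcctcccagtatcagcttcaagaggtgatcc
RT1-Da: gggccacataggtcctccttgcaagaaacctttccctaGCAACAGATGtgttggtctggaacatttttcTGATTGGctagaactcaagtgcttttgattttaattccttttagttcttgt
RT1-Db1: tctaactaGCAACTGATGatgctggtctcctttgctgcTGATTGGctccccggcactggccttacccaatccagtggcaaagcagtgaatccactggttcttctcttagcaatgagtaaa
RT1-Ba: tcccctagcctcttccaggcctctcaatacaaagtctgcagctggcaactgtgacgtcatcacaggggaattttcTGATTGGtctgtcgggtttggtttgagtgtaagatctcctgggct
RT1-Bb: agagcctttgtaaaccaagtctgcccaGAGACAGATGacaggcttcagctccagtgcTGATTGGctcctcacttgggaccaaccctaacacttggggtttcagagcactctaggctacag
RT1-DMa: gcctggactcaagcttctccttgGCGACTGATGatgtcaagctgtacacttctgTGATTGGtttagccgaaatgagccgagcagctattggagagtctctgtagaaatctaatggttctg

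RT1-Da, RT1-Db1, RT1-Bb and RT1-DMa held both motifs, X first, with 21, 20, 20 and 21 bases between them. RT1-Ba held the Y letters at position -45, counted back from the base before the gene start at -1, and no X match. Neither was found for Cd74. The letters were chosen after these promoters had been read, so the matches describe the set and are no test of it. Across the 33469 promoters of the table, each 300 bases long and read on both strands, 2.84% held the X pattern and 7.06% the Y letters. X followed on the same strand by Y with 15 to 25 bases between them occurred in 6 promoters (0.0179%), namely the 4 given and those of RT1-DOb and RT1-Db2, further class II chain genes. That RT1-DMa and RT1-Da share the arrangement follows from how the pattern was drawn. Whether the arrangement bears on the levels of these genes was not tested.

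The deposited matrix held 58078 barcodes in 6 libraries, numbered 1 to 6 by barcode suffix, with 46853113 to 62094407 UMIs each. Nothing in the sources used here ties a library to a labelled sample, so 0 libraries were tied, no comparison of irradiated with control rats was made, and values are given per library with no group. The 47175 cells kept had a median of 4882 UMIs. Library pairs shared 17 to 49 barcode sequences. Cell classes stood apart by library: the microglia-like class had 4552, 6678, 7157, 571, 436 and 47 cells in libraries 1 to 6, whereas a class called here the Clec7a-led clusters had 2, 4, 17, 2044, 3353 and 2622. For these 2 classes, cell class and library can be separated only within libraries 4 to 6. Classes were named from markers that include no MHC class II gene, and the clusters were built without MHC class II genes.

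The 5 genes of the surface pathway (Cd74 and the 4 RT1-D and RT1-B chains) and the DM genes had different orders of level across classes. Levels are given as CPM, the UMIs of a gene scaled to the same total for each class, with libraries pooled as 1 sample. The values in brackets after a level are its 95% exact Poisson interval, which covers counting error only and not differences between rats. Summed over the 5 surface-pathway genes, the level was highest in a 31-cell group called here the Ccr2-Flt3 subcluster at 51086 CPM, then 17823 CPM in B cell-like cells and 11996 CPM in border macrophage-like cells. The Clec7a-led clusters were at 1684 CPM, microglia-like cells at 747 CPM and astrocyte-like cells at 42.4 CPM. Summed over RT1-DMa and RT1-DMb, the same classes were at 1763, 879, 1433, 1941, 2799 and 103 CPM. Microglia-like cells thus stood higher than each of the 4 classes named before them in the DM sum and lower than each in the surface-pathway sum. Among the other classes, cluster 15 (836 cells, led by Lyz2, Lgals3 and Fcgr3a) was at 1857 and 2515 CPM in the surface-pathway and DM sums, monocyte-like cells (29 cells) at 1241 and 922 CPM, cycling cells at 606 and 2736 CPM and T or NK cell-like cells at 265 and 163 CPM.

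**Figure D1:**
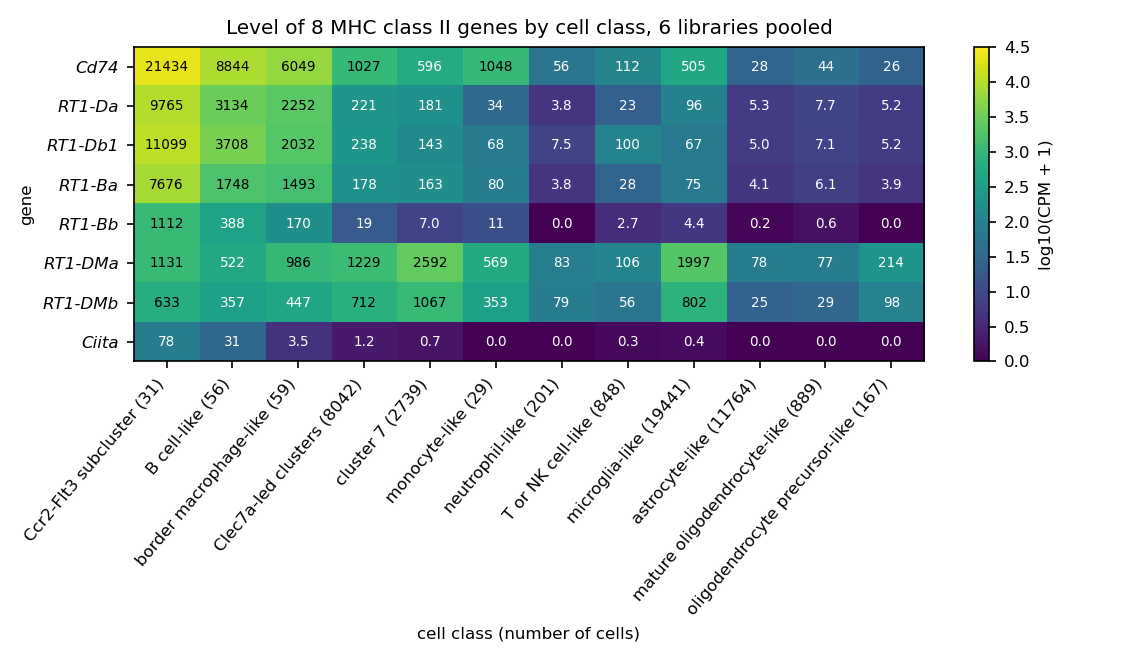
Level of each of the 8 genes (rows) in 12 cell classes (columns, with the number of cells), as CPM of pooled libraries printed in each box and coloured by log10(CPM + 1). The Ccr2-Flt3 subcluster has the highest value of each gene except RT1-DMa and RT1-DMb, which are highest in cluster 7 and next in microglia-like cells.

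The identity of these classes was checked against their markers. The Ccr2-Flt3 subcluster expressed 6 of 7 monocyte and 5 of 10 dendritic cell markers above the level set for naming, led by Slpi, Fcnb, Fxyd2 and Fn1, so it was given neither name. Border macrophage-like cells (59 cells) had 0 of 10 border macrophage markers at 0 UMIs, with a marker sum of 8794 CPM. B cell-like cells (56 cells) had 0 of 10 B cell markers at 0, with a sum of 14973 CPM. The Clec7a-led clusters (8042 cells in clusters 2 and 6) had Clec7a, Plau and Ifitm1 among the leading genes of both and at most 5 of 10 border macrophage markers, too few for a name. Cluster 7 (2739 cells) had 9 of 11 microglia markers and was led by Mmp2, Lyve1 and Gpnmb. Since the small classes hold few cells per library, most of their values exist only for the pooled matrix.

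Cd74 was at 21434 CPM (20929 to 21948) in the Ccr2-Flt3 subcluster, 8844 (8430 to 9274) in B cell-like cells and 6049 (5766 to 6343) in border macrophage-like cells. In the Clec7a-led clusters it was at 1027 CPM (1018 to 1036), with 1267, 1036 and 696 CPM in libraries 4, 5 and 6. In microglia-like cells it was at 505 CPM (500.3 to 509), with 259, 672, 605, 145, 211 and 162 CPM in libraries 1 to 6. The 3 libraries of the Clec7a-led clusters lay above all 6 of the microglia-like cells, and within libraries 4, 5 and 6 the classes did not overlap. Astrocyte-like cells, assumed here to lack the gene, had 12.9 to 39.6 CPM across the 6 libraries (pooled 27.8), which is taken here as the background level. That assumption was not tested. Neutrophil-like cells were at 56.5 CPM and mature oligodendrocyte-like cells at 44.0 CPM, and T or NK cell-like cells at 112 CPM. The border macrophage-like value was uneven over libraries: the 20 cells of library 3 gave 1559 CPM.

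RT1-Da, the α chain of RT1-D, followed the same order. It was at 9765 CPM in the Ccr2-Flt3 subcluster, 3134 in B cell-like cells, 2252 in border macrophage-like cells and 221 in the Clec7a-led clusters. Microglia-like cells were at 95.9 CPM, with 45.0, 136, 110, 25.6, 38.0 and 20.9 CPM in libraries 1 to 6, and astrocyte-like cells at 5.28 CPM. The Clec7a-led clusters had 238, 226 and 142 CPM in libraries 4, 5 and 6, so here too their lowest library lay above the highest microglia-like one. RT1-Db1, its β chain partner, was at 11099, 3708, 2032 and 238 CPM in the same 4 classes, with 67.1 CPM for microglia-like and 5.04 CPM for astrocyte-like cells. The file also counts RT1-Db2, a copy of the β chain gene. How reads that match both copies were treated is not given in the sources used here, so the split between them is uncertain.

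RT1-Ba, the α chain of RT1-B, was at 7676 CPM in the Ccr2-Flt3 subcluster, 1748 in B cell-like, 1493 in border macrophage-like and 178 in Clec7a-led cells (226, 187 and 110 CPM in libraries 4, 5 and 6). Microglia-like cells were at 74.8 CPM, with 37.8, 134, 54.4, 16.9, 44.0 and 36.5 CPM in libraries 1 to 6. Library 2 stood above the other 5 and carried much of the pooled value, which was 45.2 CPM without it. RT1-Bb, the β chain of RT1-B, had the lowest UMI count of the chains, 1947 in all kept cells against 23002 for RT1-Ba. It was at 1112 CPM in the Ccr2-Flt3 subcluster, 388 in B cell-like cells, 170 in border macrophage-like cells, 18.5 in the Clec7a-led clusters and 4.36 in microglia-like cells. Of the last, library 3 was highest at 8.50 CPM, and without it the pooled value was 2.42 CPM.

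RT1-DMa was highest in cluster 7 at 2592 CPM (1562, 1676, 2139.9, 3027 and 2978 in libraries 1, 2, 4, 5 and 6). Microglia-like cells were at 1997 CPM (1988 to 2006), with 2034, 2198, 1749, 1613, 2702 and 2263 CPM in libraries 1 to 6. The libraries of this class thus lay closer together for RT1-DMa than for Cd74, where they ran between 145 and 672 CPM. The Clec7a-led clusters had 799, 1289 and 1395 CPM in libraries 4, 5 and 6, each below the microglia-like cells of the same library. The Ccr2-Flt3 subcluster was at 1131 CPM (1017 to 1253), border macrophage-like cells at 986 (873 to 1109) and B cell-like cells at 522 (425 to 635). Astrocyte-like cells were at 57.3 to 117 CPM across libraries. RT1-DMb, the partner chain, was at 1067 CPM in cluster 7, 802 in microglia-like cells, 712 in the Clec7a-led clusters, 633 in the Ccr2-Flt3 subcluster, 447 in border macrophage-like cells and 357 in B cell-like cells. Oligodendrocyte precursor-like cells had 214 CPM of RT1-DMa against 26.2 CPM of Cd74, with 204, 107 and 94.5 CPM of RT1-DMa in libraries 1, 4 and 5. The pooled value lies above all 3 of these libraries, and the 13 cells of library 2 held 105 of the 238 DM UMIs of the class.

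Ciita was near the detection floor, with 139 UMIs in 47175 kept cells. The Ccr2-Flt3 subcluster held 25 of them in 31 cells, 78.3 CPM (50.7 to 116), and B cell-like cells 6, which is 31.03 CPM (11.4 to 67.5). The Clec7a-led clusters held 51 UMIs, or 1.16 CPM (0.862 to 1.52), and microglia-like cells 35, or 0.355 CPM (0.247 to 0.494). Border macrophage-like cells had a single UMI among 59 cells, all of it in library 4, and astrocyte-like cells 2 among 11764. The order of the transactivator over the Ccr2-Flt3 subcluster, B cell-like cells, the Clec7a-led clusters and microglia-like cells was therefore that of the surface-pathway genes, whereas the DM genes had microglia-like cells first.

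**Figure D2:**
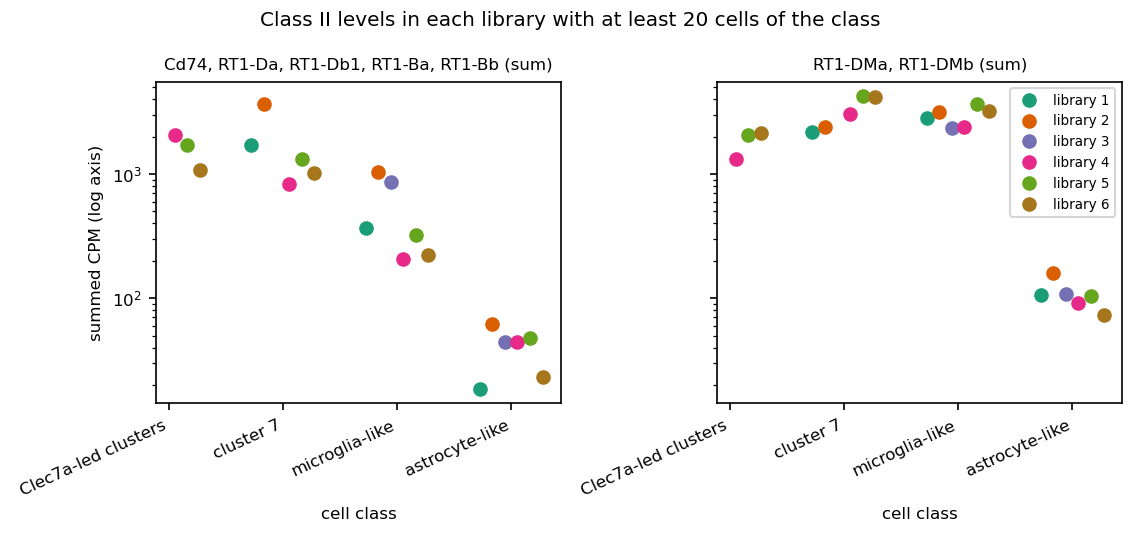
Summed CPM (log axis) of the 5 surface-pathway genes (left) and of RT1-DMa and RT1-DMb (right) in each library with at least 20 cells of the class, coloured by library. In libraries 4, 5 and 6 the Clec7a-led clusters stand above microglia-like cells in the surface-pathway sum (2063, 1712 and 1078 against 209, 324 and 224 CPM) and below them in the DM sum (1333, 2049.9 and 2154 against 2381, 3680.5 and 3244 CPM).

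Across all genes, classes were compared as log2 ratios of CPM after 10 CPM were added, with a 2-fold difference as the call and no test, since the pooled matrix is 1 sample. In the Ccr2-Flt3 subcluster over microglia-like cells, 9.48% of 8503 genes were at least 2-fold higher and 9.26% lower. Of the 8 members, 6 were higher and 0 lower, with log2 ratios of 5.38 for Cd74, 6.53 for RT1-Da, 7.17 for RT1-Db1, 6.5 for RT1-Ba, 6.29 for RT1-Bb and 3.09 for Ciita. RT1-DMa (-0.82) and RT1-DMb (-0.34) did not reach the call. In B cell-like over microglia-like cells, 10.9% of 9119 genes were higher and 13.3% lower, and of the members 6 were higher and 2 lower, the DM genes (RT1-DMa -1.91, RT1-DMb -1.15). RT1-DMb was at -0.88 without library 2 and -0.91 without library 6. Ciita had a log2 ratio of 1.99 there.

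In border macrophage-like over microglia-like cells, 7.78% of 8713 genes were higher and 9.53% lower. Of 7 members that passed the level filter, 5 were higher (log2 ratios 3.56 for Cd74 to 4.73 for RT1-Db1) and RT1-DMa was lower (-1.01, but -0.97 and -0.95 without libraries 1 and 5). In the Clec7a-led clusters over microglia-like cells, 6.43% of 8357 genes were higher and 5.44% lower, and 4 of 7 members were higher and 0 lower. These were Cd74 at 1.01, RT1-Da at 1.13, RT1-Db1 at 1.69 and RT1-Ba at 1.15 (1.74 without library 2), with RT1-Bb just under the call at 0.99. The pooled calls are close to the limit: without library 1, Cd74, RT1-Da and RT1-Ba were at 0.73, 0.85 and 0.90, without library 4 or 5 Cd74 was at 0.89 or 0.99, and without library 3 RT1-Ba was at 0.905 and RT1-Bb at 1.04. Within single libraries the summed surface-pathway ratio was larger, 3.25, 2.37 and 2.22 in libraries 4, 5 and 6, against 1.16 pooled. In the pooled ratio most microglia-like cells are of libraries 1 to 3, where their surface-pathway sum was 369, 1034 and 866 CPM. In microglia-like over astrocyte-like cells, 13.9% of 9696 genes were higher and 24.2% lower, and all 6 members that passed the filter were higher, from RT1-Db1 at 2.36 to RT1-DMb at 4.55. A member that passed the filter only through the class where it was high had to differ, so these counts describe the members and are no support for a difference.

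The rest of the pathway was read from 8 lists of 55 genes, 50 of which were in the table. The further chain genes RT1-DOa and RT1-DOb encode DO, which restrains DM and is known from B cells. RT1-DOa was at 113 CPM in the Ccr2-Flt3 subcluster and 160.3 CPM in B cell-like cells, against 0.173 CPM in microglia-like cells, and RT1-DOb at 50.1 and 67.2 CPM against 0.142 CPM. In the Clec7a-led clusters they were at 0.477 and 0.794 CPM. The list of DNA-binding factors and cofactors of class II promoters (RFX, NF-Y, CREB and acetyltransferases) had 0 of 10 genes called in either direction in the Ccr2-Flt3 subcluster, B cell-like cells and the Clec7a-led clusters over microglia-like cells, with median log2 ratios of 0.05, 0.00 and 0.02. Over all genes, the shares higher and lower were 9.48% and 9.26%, 10.9% and 13.3%, and 6.43% and 5.44% in these comparisons, so 0 of 10 lies near the share of genes in general. In border macrophage-like cells 2 of 10 were lower, beside 9.53% of all genes, Rfx5 and Nfya, both at 0 CPM in 59 cells, against 11.99 and 19.1 CPM in microglia-like cells. At such levels a class of this size would hold few UMIs of either gene, so both zeros lie near the detection floor.

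The list of genes that process peptides and the invariant chain was read in the same way. Of 8, the numbers higher and lower over microglia-like cells were 1 and 6 in the Ccr2-Flt3 subcluster, 0 and 7 in B cell-like cells, 0 and 3 in border macrophage-like cells, and 0 and 4 in the Clec7a-led clusters. Over all genes, the shares higher were 9.48%, 10.9%, 7.78% and 6.43% in these comparisons, and the shares lower 9.26%, 13.3%, 9.53% and 5.44%. The list medians were -1.87, -2.10, -0.65 and -1.32, beside medians over all genes between -0.01 and 0.06. Ctss, the cathepsin that makes the last cuts in the invariant chain, was at 3727, 3662, 3922 and 4115 CPM in these 4 classes against 22804 CPM in microglia-like cells. Ifi30, a reductase that opens disulphide bonds of endosomal proteins, ran the other way in the Ccr2-Flt3 subcluster at 1384 CPM against 494 CPM. In microglia-like over astrocyte-like cells all 8 of this list were higher, beside 13.9% of all genes, with a median of 2.797 against -0.30 over all genes. Interferon gamma receptor genes were also higher there, Ifngr1 at 1626 CPM against 46.1 CPM and Ifngr2 at 192 against 12.996 CPM.

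Among costimulatory genes, Cd86 was at 68.9 CPM in the Ccr2-Flt3 subcluster and 83.2 CPM in the Clec7a-led clusters, against 65.4 CPM in microglia-like cells. Of the 4 and 3 costimulatory genes tested in these 2 comparisons, 0 were called in either direction. Over all genes, 9.48% and 6.43% were higher and 9.26% and 5.44% lower, so 0 of so few lies near the share of genes in general. B cell-like cells had 5.17 CPM of Cd86 and 114 CPM of Cd40, against 65.4 and 43.5 CPM in microglia-like cells. CD74 also acts as a surface receptor for the cytokine MIF, with Cd44 and Cxcr4 as coreceptors. Cd44 was at 132 CPM in the Ccr2-Flt3 subcluster, 36.2 in B cell-like cells, 17.7 in border macrophage-like cells and 11.1 in the Clec7a-led clusters, against 0.802 CPM in microglia-like cells. Cxcr4 was at 159.7, 424, 24.8 and 20.2 CPM in the same order, against 1.66 CPM. Mif itself reached 206 CPM in microglia-like cells, against 1236 CPM in astrocyte-like cells. In the trafficking list, Cd9 was 2-fold lower or more in all 4 comparisons with microglia-like cells, at 15.7, 41.4, 14.2 and 25.8 CPM against 197 CPM.

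The chain genes and the DM genes also differed in how their UMIs spread over cells. For this, each cell was thinned to 2000 UMIs, and shallower cells were left out. Of 18028 microglia-like cells, 95.1% had an RT1-DMa UMI and 76.9% an RT1-DMb UMI, against 30.0% for Cd74, 7.57% for RT1-Da, 5.29% for RT1-Db1, 6.16% for RT1-Ba, 0.599% for RT1-Bb and 0.0444% for Ciita. In the 9671 astrocyte-like cells at the same depth these shares were 15.1%, 4.96%, 5.54%, 1.17%, 1.00%, 0.827%, 0.0414% and 0.0207%. Before thinning, the median depth was 4680 UMIs in microglia-like cells and 6269 in astrocyte-like cells. The share of microglia-like cells with Cd74 was 22.3%, 38.2%, 28.6%, 15.7%, 21.97% and 16.7% in libraries 1 to 6, so every library lay above the 3.11% to 8.05% of its astrocyte-like cells. In the Clec7a-led clusters, 28.7% of 7394 cells had Cd74 and 83.5% had RT1-DMa. By library, the Cd74 share of the Clec7a-led clusters was 37.1%, 28.9% and 21.7% in libraries 4, 5 and 6, each above the 15.7%, 21.97% and 16.7% of microglia-like cells in the same library.

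The Fano factor, the variance of the thinned count over its mean, was 8.76 for Cd74 and 1.79 for RT1-DMa in microglia-like cells, and 19.4 and 1.49 in the Clec7a-led clusters. In astrocyte-like cells both were near 1 (1.01 and 0.996). RT1-Da, RT1-Db1 and RT1-Ba were at 4.09, 4.789 and 3.66 in microglia-like cells and at 9.65, 10.7 and 6.11 in the Clec7a-led clusters, and RT1-DMb at 1.24 and 1.16. RT1-Bb was at 1.42 in microglia-like cells, below RT1-DMa, and at 1.85 in the Clec7a-led clusters. These are values of pooled libraries. Within libraries 1 to 4, Cd74 in microglia-like cells was at 4.94, 6.97, 12.14 and 3.94, above RT1-DMa at 1.64, 1.87, 1.61 and 2.05. In library 5 Cd74 was below RT1-DMa, at 2.04 against 2.53, as were RT1-Da, RT1-Db1 and RT1-Ba at 2.29, 1.76 and 1.32. RT1-Db1 and RT1-Ba were also below RT1-DMa in library 4, at 1.43 and 1.65. In the Clec7a-led clusters Cd74 was above RT1-DMa in libraries 4, 5 and 6.

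**Figure D3:**
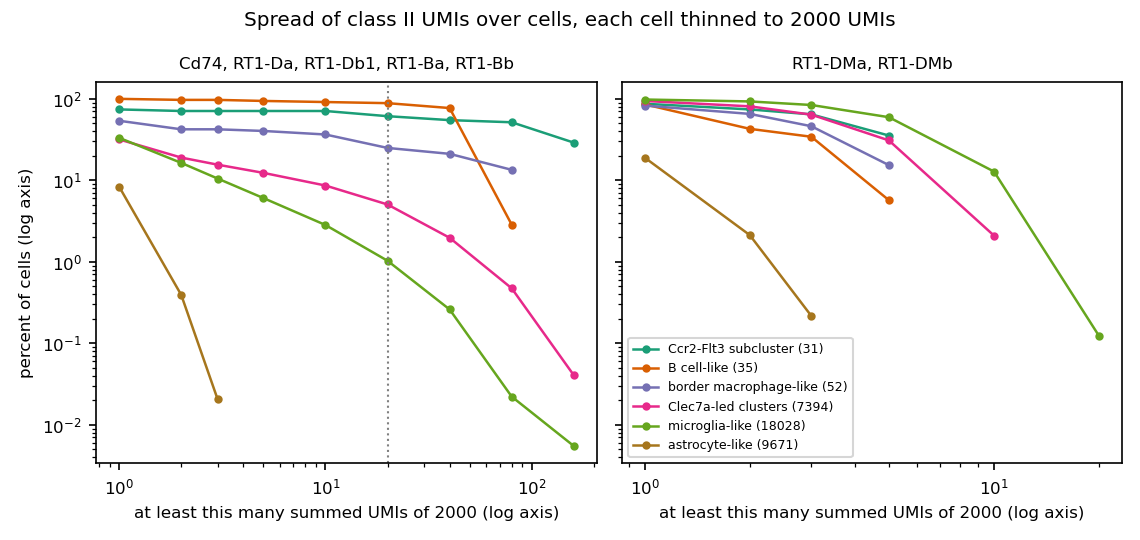
Percent of cells (log axis) that hold at least the number of summed UMIs on the x axis (log axis), for the 5 surface-pathway genes (left) and the DM genes (right), with each cell thinned to 2000 UMIs. At 20 surface-pathway UMIs, marked by the dotted line, the lines stand at 88.6% of B cell-like, 61.3% of Ccr2-Flt3, 25% of border macrophage-like, 5.06% of Clec7a-led and 1.03% of microglia-like cells, while 20 DM UMIs are reached by 0.122% of microglia-like cells and by none of the other 5 classes drawn.

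Cells with at least 20 of their 2000 UMIs from the 5 surface-pathway genes are called class II-high here, a limit set after the distribution had been seen. They made up 31 of 35 B cell-like cells (88.6%), 19 of 31 cells of the Ccr2-Flt3 subcluster (61.3%, exact binomial interval 42.2 to 78.1), 13 of 52 border macrophage-like cells (25%) and 374 of 7394 cells of the Clec7a-led clusters (5.06%, 4.57 to 5.58). Libraries 4, 5 and 6 of the last gave 5.37%, 5.24% and 3.88%. Of 18028 microglia-like cells 186 were class II-high (1.03%, 0.889 to 1.19), with 0.408%, 1.40%, 1.18%, 0.249%, 0% and 0% in libraries 1 to 6. No astrocyte-like cell of 9671 reached the limit, which allows a share of up to 0.0381% by the exact interval. Libraries 5 and 6 held only 223 and 30 microglia-like cells at this depth, so a share of 0 there says little. Of the few Clec7a-led cells outside libraries 4 to 6, 17 of 17 in library 3 and 3 of 4 in library 2 were class II-high. Within the Ccr2-Flt3 subcluster the median cell had 97 surface-pathway UMIs of 2000, with a 10th percentile of 0. At least 1 such UMI was found in 74.2% of its cells, and at least 10 in 71.0%. Within border macrophage-like cells the median was 1, with a 90th percentile of 87.7. Pooled over libraries, both classes thus held cells with and without the pathway, but the libraries were uneven. In libraries 1 to 6, 2 of 3, 7 of 7, 2 of 9, 2 of 4, 3 of 4 and 3 of 4 cells of the Ccr2-Flt3 subcluster were class II-high. Among border macrophage-like cells these were 0 of 1, 2 of 9, 1 of 13, 4 of 7, 5 of 19 and 1 of 3. With so few cells per library, class and library cannot be told apart here.

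Grouping cells of a class by their Cd74 count within a library showed how the other members moved with it. Among microglia-like cells of library 2, RT1-Da averaged 0.03, 0.07, 0.40, 1.28 and 3.74 UMIs per cell with 0, 1, 2 to 4, 5 to 9 and 10 or more Cd74 UMIs. RT1-DMa averaged 4.94, 4.27, 3.66, 2.97 and 2.72 UMIs in the same bins. The direction of both was the same in libraries 1 and 3 between the first and last bin: RT1-DMa averaged 4.21 and 2.79 in library 1 and 3.80 and 2.08 in library 3, for cells with 0 and with 10 or more Cd74 UMIs. P2ry12, a purinergic receptor that marks homeostatic microglia, averaged 1.52 and 1.29, 1.69 and 0.85, and 2.53 and 1.37 UMIs in the first and last bin of libraries 1, 2 and 3. Ctss averaged 39.7 and 29.3, 45.5 and 32.7, and 57.0 and 38.7 UMIs, and Ifi30 0.88 and 1.25, 1.11 and 1.84, and 0.83 and 1.34. In these 3 libraries RT1-DMa, P2ry12 and Ctss were thus lower, and RT1-Da and Ifi30 higher, in cells with much Cd74.

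The Clec7a-led clusters also had more RT1-Da in cells with much Cd74. RT1-Da averaged 0.02 and 3.67, 0.02 and 4.8, and 0.01 and 4.90 UMIs in cells with 0 and with 10 or more Cd74 UMIs of libraries 4, 5 and 6. RT1-DMa averaged 1.44 and 1.69, 2.54 and 2.10, and 2.73 and 2.05, higher in library 4 and lower in libraries 5 and 6. RT1-DMb averaged 1.02 and 1.11, 1.52 and 1.56, and 1.46 and 1.51, slightly higher in the last bin of each. The last bin is thin in places, with 24, 130 and 125 microglia-like cells in libraries 1 to 3 and 147, 200 and 130 Clec7a-led cells in libraries 4 to 6. Every count is out of 2000, of which the bins of high Cd74 give a larger part to the surface-pathway genes.

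**Figure D4:**
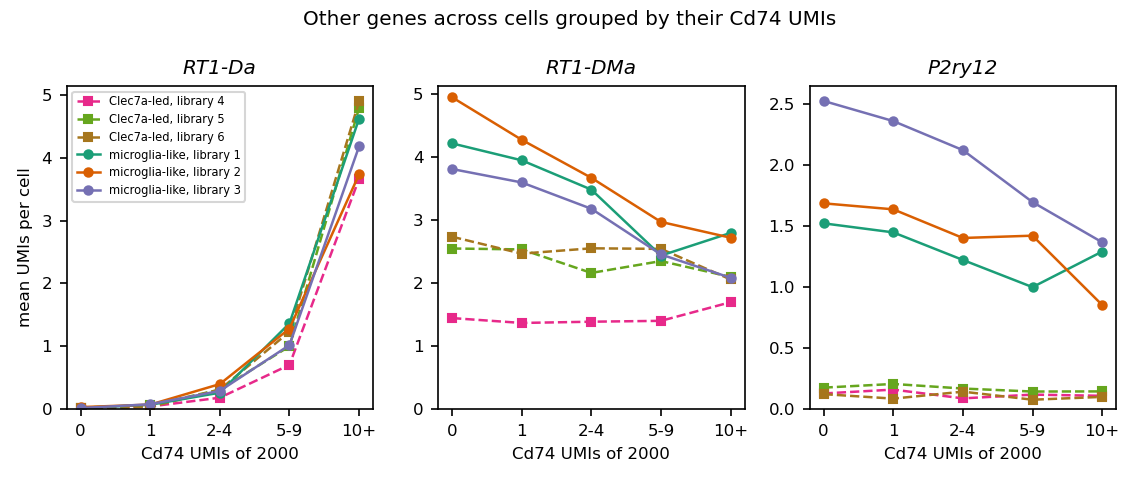
Mean UMIs per cell of RT1-Da, RT1-DMa and P2ry12 (y axes) in cells grouped by their Cd74 UMIs of 2000 (x axis), for the Clec7a-led clusters in libraries 4 to 6 (squares, dashed) and microglia-like cells in libraries 1 to 3 (circles, solid). RT1-Da climbs in each line, while RT1-DMa and P2ry12 are lower in the last bin than in the first in the 3 microglia-like lines.

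Class II-high cells were also compared with the other cells of their class for genes that did not define them, with the 5 surface-pathway genes left out of the tested genes and of the CPM total. Among microglia-like cells, 0.586% of 7854 genes were at least 2-fold higher and 0.331% lower. Neither DM gene was called: RT1-DMa was at 1152 CPM in class II-high cells and 2016 CPM in other cells (log2 ratio -0.80), and RT1-DMb at 590.4 and 809.9 CPM (-0.45), beside a median of -0.12 over all genes. Within libraries, the class II-high cells averaged 4.24 DM UMIs against 6.56 in the other cells of library 2, and 3.04 against 4.97 in library 3. Ciita had 5 UMIs in the class II-high cells (3.71 CPM) against 0.315 CPM in other cells, too few for the level filter. No gene of the promoter-factor, processing, trafficking, costimulation or interferon gamma lists was called, with Ifi30 at 771 CPM against 491 and Cd86 at 95.8 against 65.3.

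Among the Clec7a-led clusters, 0.273% of 8069 genes were higher in class II-high cells and 0.0744% lower, and Ciita was among those higher. It had 28 UMIs in the 374 class II-high cells and 22 in the 7020 others, 12.6 CPM against 0.539 CPM (log2 ratio 1.10 with 10 CPM added). Ciita passed the level filter only through the class II-high cells, so its call was all but fixed. The call is thus no support for a difference. Libraries 4, 5 and 6 each had more Ciita in class II-high cells, at 12.2 against 1.05 CPM, 9.44 against 0.624 CPM and 12.6 against 0.224 CPM, from 7, 8 and 8 UMIs in these cells. RT1-DMa was at 1109 CPM against 1249 and RT1-DMb at 755 against 718, neither called. RT1-DOa was at 8.55 CPM against 0.0245 and RT1-DOb at 4.95 against 0.587, both under the level filter. Ctss was at 4241 CPM against 4154. In the class II-high cells Ciita was thus higher in CPM beside the surface-pathway genes that chose them. The DM genes and the cathepsin did not differ by 2-fold. Among the 52 border macrophage-like cells, where 12.9% of 9419 genes were called higher and 24.8% lower, the 13 class II-high cells had 1510.3 CPM of RT1-DMa against 817 CPM and 788 CPM of RT1-DMb against 317 CPM (log2 ratios 0.88 and 1.29), so RT1-DMb was called higher and RT1-DMa was not called.

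Markers of other cell types were read in the same cells. In microglia-like class II-high cells, the B cell list summed to 97.3 CPM against 32.5 CPM in other cells. Of its 10 markers, 4 were at 0, 1 was at least 2-fold higher and 0 were lower. Over all tested genes, 0.586% were higher and 0.331% lower. At least 2 B cell marker UMIs were found in 15.6% of cells against 2.30%. The monocyte list summed to 495 CPM against 218 (3 of 7 at 0, 1 at least 2-fold higher) and the dendritic cell list to 276 against 372 (3 of 10 at 0). The border macrophage list summed to 63.1 against 135 (7 of 10 at 0, 1 at least 2-fold lower) and the microglia list to 14373 against 20375 (1 of 11 at 0). Median depth was 6803 UMIs in class II-high cells and 4851.5 in the others. In the Clec7a-led clusters the B cell list summed to 149 CPM in both groups. The border macrophage list summed to 607 against 726 CPM, with 1 of 10 markers at least 2-fold higher. The dendritic cell list summed to 133 against 131 CPM, with 1 of 10 higher, Flt3 (30.2 against 6.51 CPM). The monocyte list summed to 53.6 against 32.6 CPM and the microglia list to 8652 against 8927 CPM, with 0 higher in either. The median depth was 5552 against 4985.5 UMIs. The part of other cell types and of depth in the class II-high pattern was not tested.

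The shares of paired chains differed between libraries as well as classes. Such a share compares 2 genes whose capture may differ, so it is read only across classes and libraries. RT1-Bb made up 12.7% of RT1-Ba and RT1-Bb UMIs in the Ccr2-Flt3 subcluster, 18.2% in B cell-like cells, 10.2% in border macrophage-like cells, 9.40% in the Clec7a-led clusters, 4.14% in cluster 7 and 5.51% in microglia-like cells. Over all kept cells the 6 libraries had 3.72%, 5.39%, 16.1%, 8.10%, 8.04% and 5.75%, and library 3 was highest. It was also highest within the Ccr2-Flt3 subcluster (21.1%, against 7.29% to 13.9% in the other libraries), B cell-like cells (25.6%, against 10.3% to 22.7%), the 17 Clec7a-led cells it held (20.3%, against 6.36% to 14.2%) and microglia-like cells (13.5%, against 1.92% to 2.88%). The microglia-like share thus rests on library 3: without it the share was 2.78%, and without library 2 it was 9.18%. In the same library the RT1-B chains were lowest relative to RT1-D, at 23.6% of the 4 chains against 30.1% to 35.1% in the other 5. The cause of the difference was not tested.

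RT1-Db1 made up 53.2% of RT1-Da and RT1-Db1 UMIs in the Ccr2-Flt3 subcluster, 54.2% in B cell-like, 51.9% in Clec7a-led, 47.4% in border macrophage-like, 41.2% in microglia-like and 48.8% in astrocyte-like cells. T or NK cell-like cells stood apart at 81.5% (interval 77.7 to 85.0), with 80%, 89.0% and 81.9% in libraries 3, 4 and 5, where astrocyte-like cells had 35.9%, 55.4% and 49.0%. Their RT1-Db1 level was 99.9 CPM (66.8, 84.9, 113, 103, 111 and 70.5 in libraries 1 to 6), above the 67.1 CPM of microglia-like cells, while their RT1-Da level of 22.7 CPM was below the 95.9 CPM of microglia-like cells. Of 771 such cells at 2000 UMIs, 110 had RT1-Db1, and of these 15 (13.6%) had RT1-Da and 31 (28.2%) Cd74. Of the 953 microglia-like cells with RT1-Db1, 494 (51.8%) had RT1-Da and 775 (81.3%) Cd74. Of the 97 astrocyte-like cells with RT1-Db1, 2 had RT1-Da and 6 Cd74. Most T or NK cell-like cells with RT1-Db1 thus had no UMI of its partner chain, and most had none of the invariant chain. At this depth RT1-Db1 averaged 0.178 and RT1-Da 0.0441 UMIs per T or NK cell-like cell, so a partner present at a low level can be missed. The source of these UMIs was not tested. RT1-DMb made up 28.6% of DM UMIs in microglia-like, 36.7% in Clec7a-led and 40.6% in B cell-like cells.

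**Figure D5:**
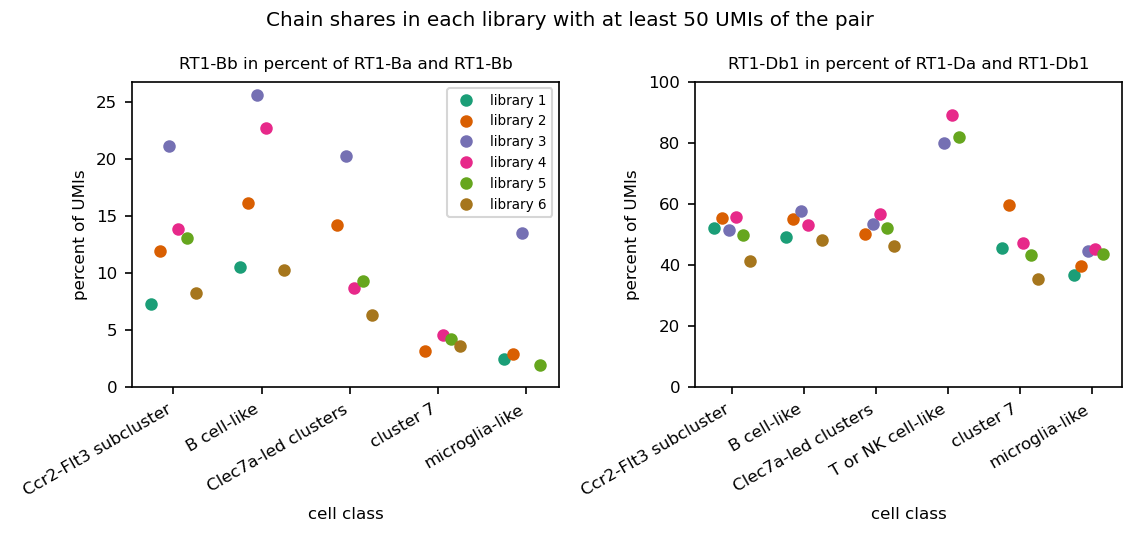
RT1-Bb in percent of RT1-Ba and RT1-Bb UMIs (left) and RT1-Db1 in percent of RT1-Da and RT1-Db1 UMIs (right) in each library with at least 50 UMIs of the pair, coloured by library. Library 3 is the highest point of each class it appears in on the left, and T or NK cell-like cells lie at 80% to 89.0% on the right, above every other class shown.

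The weight of the DM genes within the pathway summarises the classes. RT1-DMa and RT1-DMb made up 78.9% of the UMIs of the 8 genes in microglia-like cells (88.5%, 75.4%, 73.2%, 91.9%, 91.9% and 93.5% in libraries 1 to 6) and 77.0% in cluster 7. They made up 53.5% in the Clec7a-led clusters, 10.7% in border macrophage-like cells, 4.69% in B cell-like cells and 3.33% in the Ccr2-Flt3 subcluster. Astrocyte-like cells had 70.8% (85.0%, 71.9%, 70.8%, 67.3%, 68.6% and 76.2% in libraries 1 to 6). Within libraries 4, 5 and 6 the Clec7a-led share was 39.2%, 54.5% and 66.6%, each below the microglia-like share of the same library.

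The genes whose level followed the 5 surface-pathway genes most closely were read over 49 sums of a class in a library, among 8906 genes, as Pearson correlations of log2(CPM + 10) with no p-value, since the sums share libraries and depth. They were Fcgr3a, Cd72, Spint2, Abi3, Cxcl16, Armc3, Cd86, Rnaset2, Otulinl and Rgs10, with r between 0.79 and 0.82. A sum needed at least 30 cells. The Ccr2-Flt3 subcluster, B cell-like cells and border macrophage-like cells, which had the highest surface-pathway levels, therefore gave no sum. Fcgr3a encodes an Fc receptor and Cd86 a costimulatory ligand. The members' own r was 0.98 for Cd74, RT1-Da and RT1-Ba, 0.95 for RT1-Db1, 0.79 for RT1-Bb, 0.76 for both DM genes and 0.49 for Ciita, the first 5 being part of the mean they were set against. Over 18 class sums with libraries pooled, which include those classes, r was 0.82 for Ciita, 0.63 for RT1-DMa and 0.70 for RT1-DMb. Only Cd72 of the 10 genes was again among the 10 most alike there, so the list depends on how sums were formed.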

How the data were processed

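The matrix that the authors deposited holds UMI counts, whole numbers per gene and barcode, written by Cell Ranger 7.0.0 per the file headers. The submitters' processing notes name the build mm10, a mouse build, although all 30452 gene identifiers are rat Ensembl identifiers. Annotation, intron counting and any equalizing of depth were not given in the sources. Barcodes with at least 500 UMIs, 200 genes and at most 20% mitochondrial UMIs were kept (50752), and the 3577 with the highest doublet scores within their library were removed, so some doublets may remain. Free RNA was not removed. Cells were clustered by the Leiden method (resolution 1.0, 15 neighbours, 30 principal components of 2000 variable genes without MHC class II genes, libraries not aligned) into 34 clusters, of which cluster 17 was divided further. A cluster took a class name where that class's marker score was at least 1 and at least 1 above the next, with at least 3 markers and 60% of the list passing, and where its leading genes did not favour another class. The parts of cluster 17 were named by the number of passing markers alone. Neutrophil-like parts had 4 to 8 of 10 neutrophil markers passing, and the monocyte-like part 5 of 7 monocyte markers. CPM are sums over a class divided by all its UMIs, except for class II-high cells, where the 5 surface-pathway genes were left out of the total. A gene entered a comparison with at least 10 CPM in either class. Shares were counted after thinning each cell to 2000 UMIs, with exact binomial intervals, and all intervals are 95% and cover counting error only. Cells and untied libraries are not replicates, so no p-value was computed and the planned edgeR comparison of irradiated with control samples was not run. Alternatives were another mitochondrial limit, kept doublets, clusters with class II genes, cells named singly, other added CPM, another CPM total, other depths, and each library left out.

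The members and gene lists were chosen with earlier results of these data known. The naming of cells by leading genes, the class II-high limit, the motif letters and the values within libraries 4 to 6 were settled after the data had been seen. Named genes are the 8 members, at most 5 of each pathway list by the text's need, and the 10 genes of most similar pattern with at least 50 CPM in a sum of at least 30 cells. Other genes, among them those of class II-high cells in the closing section, were chosen after their values were seen. Clustering ran with leidenalg 0.10.2, python-igraph 0.11.9 and scikit-learn 1.9.0, intervals with SciPy 1.17.1, tables with pandas 2.3.3 and NumPy 2.4.6, and figures with matplotlib 3.10.9, under Python 3.11.15.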

Additional observations from a re-analysis of the deposited data

Results flagged for a closer look

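Library values of the members and of the RT1-Bb and RT1-Db1 shares were searched in 56 sets for a library far from the rest by Dixon's test at 95%, which by chance marks about 1 set in 20. It marked 9, and each was library 2 or library 3. In cluster 7, Cd74 was at 2447 CPM in library 2 against 428.7 to 972.8 CPM in the other libraries, and RT1-Db1 at 482.7 CPM against 100.6 to 198.5 CPM. The 60 cells of cluster 7 in library 2 are few. In cycling cells, library 2 had 2790 CPM of RT1-DMa against 1807 to 1957 CPM, and 998.9 CPM of RT1-DMb against 697.2 to 706.2 CPM.

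In microglia-like cells, RT1-Ba was at 133.5 CPM in library 2 against 16.88 to 54.37 CPM. RT1-DMb in astrocyte-like cells was at 41.83 CPM in library 2 against 16.39 to 25.64 CPM, and that library also had the highest Cd74 there, at 39.6 CPM. Library 3 had the highest RT1-Bb share of RT1-Ba and RT1-Bb in 3 sets: 14.49% in cluster 15 (0% to 2.752% elsewhere), 13.51% in microglia-like cells (1.923% to 2.882%) and 16.14% in all kept cells (3.72% to 8.099%). These sets overlap, since the kept cells include both classes. The causes were not tested.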

How the results depend on the processing

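Of the main results under their alternatives, 72 values stayed within the counting interval and 98 moved out of it, none with a change of sign, and for single genes 733 stayed and 566 moved. No paired analysis was possible because 0 libraries were tied to a labelled sample, and for the same reason the irradiated against control alternatives (replicate block, other scaling, no filter, each replicate left out) were not run. The Ccr2-Flt3 subcluster was not rebuilt under other clusterings, no B cell-like cluster formed under the 10% mitochondrial limit, and naming cells singly gives no Clec7a-led class.

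The surface-pathway log2 ratio of B cell-like over microglia-like cells (4.56) was 4.47 with class II genes in the clustering, 4.43 with doublets kept, 2.07 with cells named singly (1472 cells in place of 56), 4.78 with CPM over other genes, and 4.27 to 4.95 with a library left out. For the Ccr2-Flt3 subcluster (6.08) it was 6.30 over other genes and 5.76 to 6.38. For the Clec7a-led clusters (1.16) it was 1.29 with class II genes in the clustering, 1.28 at the 10% limit, 1.31 over other genes and 0.87 to 1.495, and 3.25, 2.37 and 2.22 (2.215) within libraries 4, 5 and 6. For border macrophage-like cells (3.99) it was 5.21 at the 10% limit (117 cells), 1.17 with cells named singly (3962 cells), 4.13 over other genes and 3.72 to 4.39. For microglia-like over astrocyte-like cells (3.85) it was 3.91 with class II genes in the clustering, 2.74 with doublets kept, 3.57 at the 10% limit, 2.93 with cells named singly, 4.11 with 1 CPM added and 3.64 to 4.10 (4.105).

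The DM log2 ratio of B cell-like cells (-1.66) was -0.55 with cells named singly and -1.96 to -1.44 with a library left out. For the Ccr2-Flt3 subcluster (-0.66) it was -0.45 over other genes and -0.73 (-0.725) to -0.60. For the Clec7a-led clusters (-0.53) it was -0.55 with class II genes in the clustering and with doublets kept, -0.47 at the 10% limit, -0.38 over other genes, -0.83, -0.84 and -0.59 within libraries 4, 5 and 6, and -0.65 (-0.645) to -0.41. For border macrophage-like cells (-0.96) it was -0.69 at the 10% limit, -0.42 with cells named singly and -1.04 to -0.93. For microglia-like over astrocyte-like cells (4.63) it was 3.53 with doublets kept, 4.30 (4.295) at the 10% limit, 4.27 with cells named singly, 4.75 with 1 CPM added and 4.55 to 4.74.

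In microglia-like cells the DM share (78.9%) was 78.7% with class II genes in the clustering and at the 10% limit, 79.2% with doublets kept, 84.1% with cells named singly and 75.2% to 81.3%. The RT1-Bb share (5.51%) was 3.78% with class II genes in the clustering, 4.64% with cells named singly, and 2.78% to 9.18%. The share with Cd74 (30.0%) was 43.7% unthinned, 19.9% (19.95%) at 1000 UMIs and 25.6% to 32.5%, and that with RT1-DMa (95.1%) 97.4%, 80.9% and 94.4% to 95.6%. Class II-high cells made up 2.83% at 10 UMIs and 0.261% at 40 in microglia-like cells (0.835% to 1.23%), and 8.64% and 1.97% in the Clec7a-led clusters (4.84% to 5.68%). Of the 10 genes of most similar pattern, 1 remained over class sums. Among single genes, cells named singly left no 2-fold call for Cd74 (0.96), RT1-Bb (0.97) or RT1-DMa (-0.55) in border macrophage-like cells, or for Ciita (0.23), RT1-DMa (-0.67) or RT1-DMb (-0.28) in B cell-like cells. RT1-DMa in border macrophage-like cells was also under the call at the 10% limit (-0.85) and over other genes (-0.88), as was RT1-DMb in B cell-like cells over other genes (-0.94). RT1-Bb in the Clec7a-led clusters passed the call with class II genes in the clustering (1.31), at the 10% limit (1.09), with 1 CPM added (1.86), over other genes (1.15) and without library 3 (1.04) or library 6 (1.35). Values of Ciita rest on 139 UMIs in all. Ciita in class II-high Clec7a-led cells was at 11.2 CPM in libraries 4 to 6 alone. The causes were not tested.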

Other observations

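Beside the class II genes, class II-high cells differed from the other cells of their class in a few genes, given here as values chosen after they were seen. Among microglia-like cells the higher genes included Gpnmb, a glycoprotein of lipid-laden phagocytes, at 81.7 CPM in class II-high cells against 3.71 CPM in the others (24.1 against 2.70 in library 2, 166 against 4.02 in library 3). Axl, a receptor for apoptotic cells, was at 71.3 against 8.14 CPM (53.05 against 9.87 in library 2, 98.1 against 5.08 in library 3). Clec7a was at 31.2 against 1.54 CPM, Tnfrsf13c, the receptor for the B cell factor BAFF, at 67.6 against 12.1 CPM, and the complement gene C3 at 1080.5 against 305 CPM, all higher in both libraries. Spp1 (37.1 against 3.09 CPM) and Cxcl1 (105 against 10.2 CPM) came mostly from library 3, and Pdk4 (54.95 against 6.82 CPM) from library 2. Lyve1 was lower, at 11.9 against 75.2 CPM, and Igf1 at 35.6 against 103 CPM.

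Among the Clec7a-led clusters, Cxcl13, a chemokine that draws B cells, was at 221 CPM in class II-high cells against 9.57 CPM, with 125 against 26.8, 36.6 against 3.33 and 502 against 6.33 CPM in libraries 4, 5 and 6. Mmp12, a macrophage elastase, was at 289 against 98.6 CPM, the lectin-like receptor gene Ly49si1 at 103 against 26.6 CPM, Ccr6 at 22.5 against 3.08 CPM and Flt3 at 30.2 against 6.51 CPM, each higher in all 3 libraries. Lgals3, at 284 against 573 CPM, and Tnf, at 89.6 against 182 CPM, were lower in all 3 libraries. Their pooled log2 ratios of -0.99 and -0.945 were just under the 2-fold call.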
